A study of Mus musculus with 2 samples.

Results

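Interferon-stimulated effector genes are the genes that carry out the antiviral state after interferon has signalled. A list of 35 such genes was followed through maps of open chromatin from mouse neutrophils. Members were matched by symbol to protein-coding genes of GENCODE M21, and 34 of the 35 matched, out of 21911 protein-coding genes. Mx2 is annotated there as a polymorphic pseudogene (chr16:97535308-97560900, plus strand) and was not analysed here. For each member, open regions were counted at its promoter, within 1 kb of any of its annotated start sites, and at distal sites, within 50 kb of its 5'-most start site.

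Accessibility was mapped by ATAC-seq, which uses a transposase to cut open DNA and leave sequencing adapters there. The study held 1 group of 2 libraries, biological replicates 1 and 2, both of primary neutrophils; the donors were adult mice of strain C57BL/6J, at 5 to 6 weeks of age, and the source was peripheral blood. Each library was made from 50000 cells, with size ranges of 151 to 347 in replicate 1 and 151 to 379 in replicate 2, printed without a unit. The animals carried no named transgene or treatment, and no interferon or infection was given according to the labels. Both libraries name the same donor record and separate biosample records, sex was not collected, and no sorting step is named, so the spread between the replicates may be technical. There was no second condition, so no difference between groups of samples could be tested, and counts over the members are set beside the same counts over all protein-coding genes.

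Type I interferons bind a receptor whose kinases, JAK1 and TYK2, activate transcription factors that join IRF9 in a complex. That complex binds the interferon-stimulated response element (ISRE) in the promoters of effector genes, whereas type II interferon acts through the gamma-activated sequence (GAS). The products of effector genes sense viral nucleic acid, degrade RNA, block membrane budding and modify proteins with ISG15, none of which was measured here.

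An ISRE was searched as GAAANNGAAA on both strands, that is, 2 half-sites in tandem with 2 free bases between. The upstream sequences of 8 members are shown because they carry this motif with very different outcomes in the peak lists. They are the 150 bases before a start site in GRCm38, read 5′ to 3′ along the gene, taken where no annotated exon overlaps. Capitals mark ISRE matches, and overlapping matches run together. The first 5 belong to members with an open promoter in both replicates.
Usp18, chr6:121245756-121245905, plus strand: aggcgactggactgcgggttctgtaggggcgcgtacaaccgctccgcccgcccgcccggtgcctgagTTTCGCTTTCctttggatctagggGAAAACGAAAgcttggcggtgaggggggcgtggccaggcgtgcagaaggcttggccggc
Bst2, chr8:71537457-71537606, minus strand: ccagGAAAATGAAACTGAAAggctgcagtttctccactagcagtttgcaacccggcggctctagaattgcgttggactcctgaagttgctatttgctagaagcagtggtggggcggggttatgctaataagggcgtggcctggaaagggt
Zbp1, chr2:173218924-173219073, minus strand: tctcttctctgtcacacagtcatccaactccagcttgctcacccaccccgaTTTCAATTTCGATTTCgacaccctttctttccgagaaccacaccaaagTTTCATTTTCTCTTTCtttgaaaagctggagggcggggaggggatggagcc
Gbp7, chr3:142530192-142530341, plus strand: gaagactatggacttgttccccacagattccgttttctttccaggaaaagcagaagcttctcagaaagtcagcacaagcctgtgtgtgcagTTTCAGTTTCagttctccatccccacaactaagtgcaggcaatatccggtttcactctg
Rtp4, chr16:23609769-23609918, plus strand: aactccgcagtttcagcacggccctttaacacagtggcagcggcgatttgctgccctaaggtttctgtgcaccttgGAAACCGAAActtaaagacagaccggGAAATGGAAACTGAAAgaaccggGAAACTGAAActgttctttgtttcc
The other 3 belong to members with no region at the promoter in the stringent list of either replicate.
Isg15, chr4:156200819-156200968, minus strand: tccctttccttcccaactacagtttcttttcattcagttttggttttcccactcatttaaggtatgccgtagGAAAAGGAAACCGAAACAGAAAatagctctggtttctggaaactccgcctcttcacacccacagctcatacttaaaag
Oas1a, chr5:120907522-120907671, minus strand: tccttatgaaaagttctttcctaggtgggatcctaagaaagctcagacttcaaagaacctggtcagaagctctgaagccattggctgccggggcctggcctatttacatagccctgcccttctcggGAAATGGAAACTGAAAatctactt
Oas1g, chr5:120887614-120887763, minus strand: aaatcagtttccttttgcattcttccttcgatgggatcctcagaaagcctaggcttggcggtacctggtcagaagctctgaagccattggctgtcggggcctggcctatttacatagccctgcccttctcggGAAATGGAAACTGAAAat

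The ISRE of Isg15 was a run of 3 overlapping matches, centred at -74, -68 and -62 bases from the start site. Usp18 had 2 matches facing opposite ways, centred at -79 and -55. Zbp1 had 2 overlapping pairs, from -95 to -41, and Bst2 had 1 overlapping pair at -142 and -136. Gbp7 had a single match at -55. Rtp4 is shown at the start of its principal transcript, the one that GENCODE tags with the best principal level, ties broken by transcript name. There it had 4 matches between -70 and -21. Oas1a and Oas1g, neighbouring copies on chromosome 5, shared 125 of 150 upstream bases (83.3%), including an overlapping pair of matches at -20 and -14 in Oas1a and at -14 and -8 in Oas1g.

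The authors deposited for each replicate a stringent list of peaks thresholded by the irreproducible discovery rate (IDR), and a second list, less strict, of pseudoreplicated peaks. They also deposited a conservative IDR list of both replicates together. Overlapping peaks were merged into 27709 regions in the stringent list of replicate 1 and 14548 in that of replicate 2. The signal value of a region is the authors' score of its highest peak, with no defined unit. Depth is unknown, and in a bulk library a region open in few cells and a region weakly open in all cells cannot be told apart.

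The label was checked against promoters of marker genes, and it was only partly borne out. Of 10 neutrophil markers, 9 had a region in replicate 1, with signal values of 4.76 to 13.9, and 2, Mmp8 and S100a9, had one in both replicates. Ly6g, which defines mouse neutrophils in cell sorting, had none in any list of a replicate. Of 5 B cell markers, all 5 had a region in replicate 1, at 5.98 to 13.04, and Cd79a, Ms4a1 and Pax5 had one in both. Of 6 T and NK cell markers 1, Cd3d, was open in both replicates, at 16.9 in replicate 1 and 17.8 in replicate 2, while Cd3e had no region in any list of a replicate. None of 5 monocyte markers, 2 of 5 plasmacytoid dendritic cell markers, and none of 5 erythroid, 5 eosinophil and basophil and 4 platelet markers were open in both. The shares over all protein-coding genes were 47.1% in replicate 1 and 39.8% in both. In the less strict lists 8 of 10 neutrophil and all 5 B cell markers were open in both replicates, against 49.8% of all genes. The conservative IDR list of both replicates together held the same numbers of these markers, against 46.7% of all genes. Interferon-stimulated genes are also active in B cells and dendritic cells, and the part of other cell types in the results was not tested.

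Of the 34 members, 20 (58.8%) had a promoter region in both replicates, against 39.8% of all protein-coding genes. In replicate 1 there were 28 members (82.4%), against 47.1% of all genes, and in replicate 2 there were 20 (58.8%), against 40.3%. Every member open in replicate 2 was open in replicate 1, 8 were open in replicate 1 alone and 6 in neither. In the less strict lists 29 members (85.3%) were open in both replicates, against 49.8% of all genes. In the conservative IDR list of both replicates together 29 members were open as well, against 46.7%.

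Most members have promoters that are not CpG-rich, a class that is usually closed in these lists. A promoter was taken as CpG-rich when its CpG dinucleotides reached 0.6 of the number its base composition predicts and at least 0.5 of its bases were G or C, over 500 bases on either side of the 5'-most start site. Only Adar and Samhd1 met this, and both were open in both replicates, against 66.8% of all CpG-rich genes. Ifih1, Parp14, Dtx3l and Parp9 lay just under the limit, at ratios of 0.581 to 0.596. Usp18 passed on the ratio, at 0.609, but not on its share of G and C. Of the 32 other members 18 (56.2%) were open, against 18.2% of the 12187 genes of that class. All 10 neutrophil and all 5 B cell markers above were of that class too. The class was scored at the 5'-most start site, whereas the region that made a gene open could lie at any of its start sites. Adar, Dhx58, Rtp4 and Sp100 were not open in both replicates at the 5'-most start site alone. With that site alone 16 members (47.1%) of either class were open, against 36.5% of all genes. No test was made of these shares.

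The count depends on where a region must lie. When a region had to cover the start site of the principal transcript itself, 13 members (38.2%) were open in both replicates, against 32.4% of all genes. Among members without a CpG-rich promoter it was 11 of 32 (34.4%), against 12.9% of that class. The 7 members lost were Dhx58, Dtx3l, Gbp3, Gbp5, Oasl1, Parp9 and Sp100, whose strongest regions lay elsewhere in the locus. Among peaks at or above the median signal value of their list, 13 members (38.2%) were open in both, against 30.4% of all genes.

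**Figure D1:**
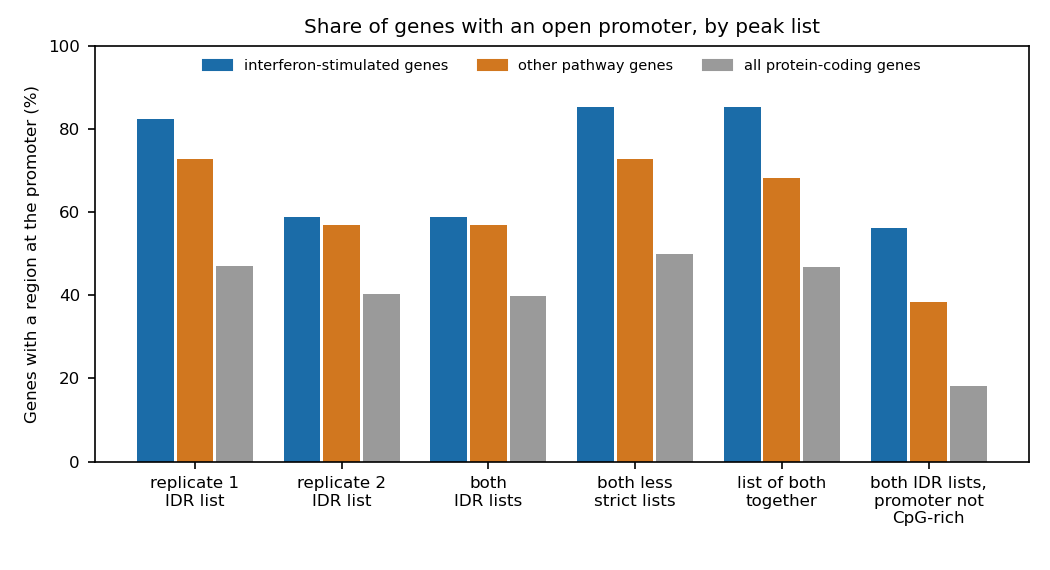
Percentage of genes with a region at the promoter (vertical axis) in each peak list, and among genes without a CpG-rich promoter, for the 34 interferon-stimulated genes, 44 other interferon pathway genes and 21911 protein-coding genes. The interferon-stimulated genes stand above all genes in each list, with 58.8% against 39.8% in both stringent lists.

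Signal at the open promoters was moderate. In replicate 1 the 28 members had a median signal value of 11.5, from 6.49 to 15.97, against a median of 12.4 over all genes with a promoter region, and 11 of the 28 lay above that. In replicate 2 the 20 members had a median of 11.99, from 9.09 to 16.4, against 13.9 over all genes, and 8 of the 20 lay above. Members found in replicate 1 alone had a median of 6.89 there, whereas members open in both had 12.3 in replicate 1. The ranges overlapped, since Oasl2 reached 13.5 in replicate 1 alone and Samhd1, open in both, had 6.67. Over the 20 members open in both, the replicates ranked alike with a Spearman rho of 0.67, against 0.82 over the 8712 genes open in both; these points share libraries and depth. Signal was higher in replicate 2 for 13 of the 20, close to the 64.3% of all genes.

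**Figure D2:**
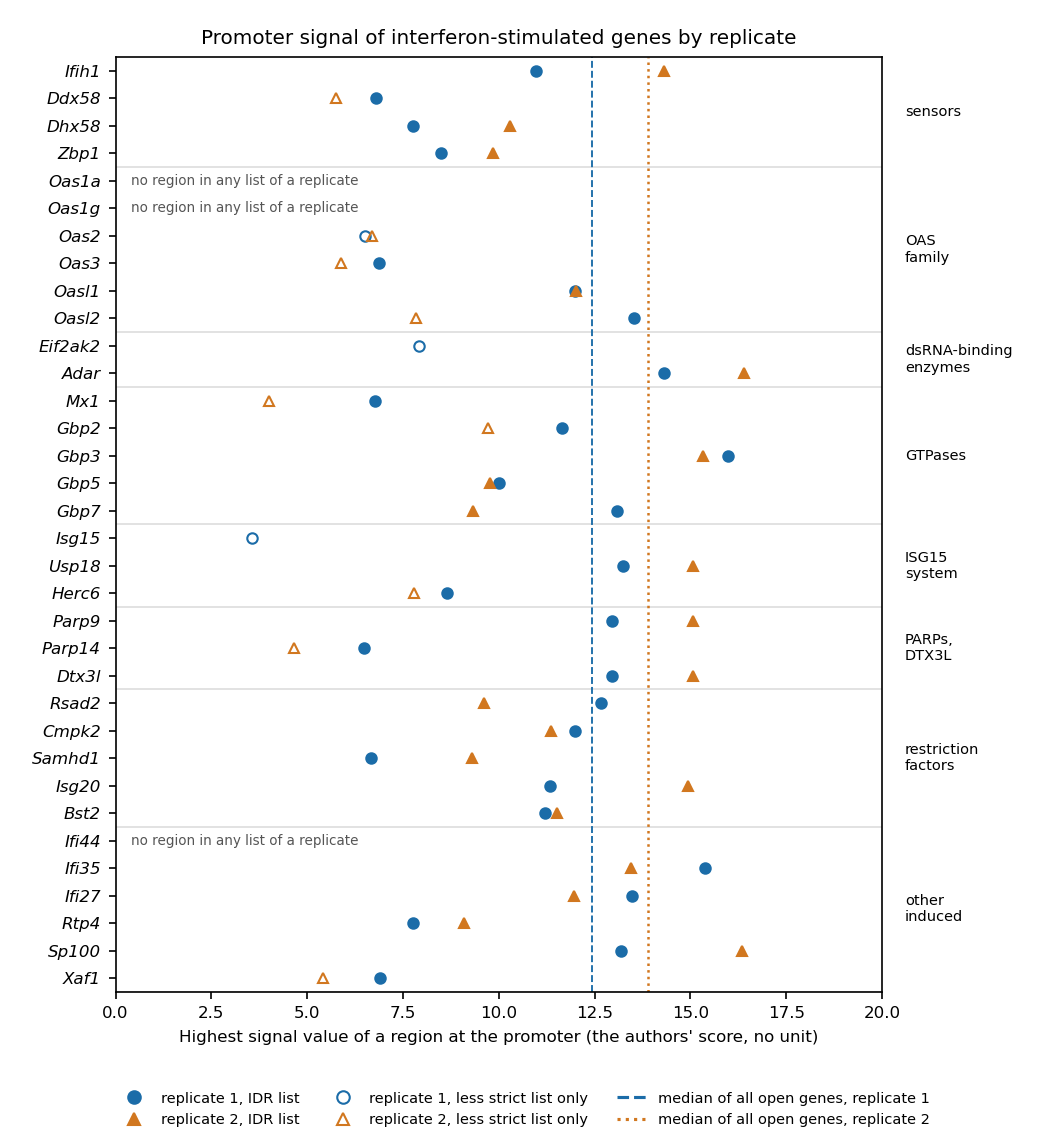
Highest signal value of a promoter region (horizontal axis, the authors' score without a unit) for each interferon-stimulated gene, grouped by role, in replicate 1 (circles) and replicate 2 (triangles). Open symbols are regions found only in the less strict lists and the vertical lines are the medians of all open genes. Oas1a, Oas1g, Oas2, Eif2ak2, Isg15 and Ifi44 have no filled symbol.

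The cytosolic sensors were open at 3 of 4 promoters in both replicates, against 39.8% of all genes. Ifih1, which encodes the double-stranded RNA helicase MDA5, had a region with its summit in an exon (chr2:62645955-62646474) with signal values of 11.0 in replicate 1 and 14.3 in replicate 2. Zbp1, a sensor of Z-form nucleic acids, had 8.49 in replicate 1 and 9.84 in replicate 2, with the nearest of the 4 ISRE matches shown above 7 bases from the summit in replicate 1 and 13 in replicate 2. Ddx58, which encodes RIG-I, had a region in replicate 1 alone, at 6.80, and in the less strict list of replicate 2 at 5.76. Dhx58 encodes the regulatory helicase LGP2, and the region that made it count as open had 7.77 in replicate 1 and 10.3 in replicate 2 but lay in an intron, 1585 bases into the gene in replicate 1. Its start site, where an ISRE match is centred on the first base, was covered only in the less strict lists, at 3.65 in replicate 1 and 3.08 in replicate 2.

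The OAS family, which makes the oligoadenylates that activate RNase L, had 1 of 6 members open in both stringent lists, the lowest share of the 8 roles there, against 39.8% of all genes. In the less strict lists 4 of 6 were open in both, against 49.8% of all genes. Oas1a and Oas1g had no region in any list of a replicate and none in the conservative IDR list of both replicates together. Within 1 kb of the start site, 28.9% of the 31-base words of Oas1a and 28.3% of those of Oas1g occur more than once in the genome, and the part of repeated sequence in the missing regions was not tested. Oas2 was absent from both stringent lists; the less strict lists had 6.52 in replicate 1 and 6.68 in replicate 2, and the conservative IDR list had 6.83. Oas3 had 6.89 in replicate 1 and, in the less strict list of replicate 2, 5.87. In Oas2 and Oas3 the summits lay within 30 bases of a single ISRE match, centred at -67 in Oas2 and -69 in Oas3.

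The pair of OAS-like genes gave a different picture. Oasl1, which in mice is also known as a repressor of Irf7 translation, owed its call to a region at -1199 bases in replicate 1 (chr5:114921791-114922312) with signal values of 11.98 in replicate 1 and 12.005 in replicate 2. That region reaches into the promoter window but its summit lies outside it, so it also counts as distal below. At the Oasl1 start site itself the less strict lists held 3.74 in replicate 1 and 2.86 in replicate 2. Oasl2 had 13.5 in replicate 1 alone, in an exon 5680 bases into the gene and near the start of a retained-intron transcript. The less strict list of replicate 2 held that region at 7.83.

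Eif2ak2 encodes the kinase PKR, which stops translation on binding double-stranded RNA. No stringent list of a replicate held a region at its promoter; the less strict list of replicate 1 had 7.92 and the conservative IDR list of both replicates together had 8.59. Adar, the RNA-editing enzyme, was one of the strongest members, at 14.3 in replicate 1 and 16.4 in replicate 2. That region (chr3:89730433-89730863 in replicate 1) lay at the start of the principal transcript, with its summit 65 bases away in replicate 1 and 40 in replicate 2. At the 5'-most Adar start site a second region had 11.3 in replicate 1 and, in the less strict list of replicate 2, 8.04.

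Among the 5 GTPases analysed, Gbp3, Gbp5 and Gbp7 were open in both replicates, against 39.8% of all genes. These guanylate-binding proteins assemble on vacuoles that hold pathogens. Gbp3 was the strongest member in replicate 1, with 15.97 there and 15.3 in replicate 2. Its summit lay 676 bases from the principal start site in replicate 1, away from the overlapping ISRE pair at -142 and -136. Gbp7 had 13.1 in replicate 1 and 9.33 in replicate 2, the largest SD between replicates of any member open in both (11.2 ± 2.65, SD, n = 2). Its summit was 3 bases from the ISRE match in replicate 1 and 4 in replicate 2.

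Gbp5 and Gbp2 resembled each other in having their strongest region away from the coding start. Gbp5 had 10 in replicate 1 and 9.78 in replicate 2 at the start of a noncoding transcript, 3240 bases from the principal start in replicate 1. The principal start of Gbp5, with an ISRE match at -127, was covered only in the less strict list of replicate 1, at 4.63. Gbp2 had 11.6 in replicate 1 and, in the less strict list of replicate 2, 9.72, in an intron 763 bases into the gene in replicate 1. Over its start site, where an ISRE match is centred at 6, the less strict lists had 4.72 in replicate 1 and 5.30 in replicate 2. Mx1, a dynamin-like GTPase whose coding sequence is defective in C57BL/6 mice, had 6.78 in replicate 1 and, in the less strict list of replicate 2, 4.01.

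The ISG15 system contrasted the modifier with its protease. Isg15, the ubiquitin-like modifier, had no region within 1 kb of its start in either stringent list, nor in the conservative IDR list of both together. It had a single weak one in the less strict list of replicate 1, at 3.55. With a promoter width of 2.5 kb, Isg15 counted as open in both stringent lists. Usp18, which removes ISG15 from proteins and damps receptor signalling, had 13.3 in replicate 1 and 15.1 in replicate 2, in a region (chr6:121245705-121246052 in replicate 1) that holds both ISRE matches. Both promoters carry the motif, yet the 3 overlapping matches of Isg15 lay outside every stringent region. Herc6, the main ISG15 ligase in mice, had 2 regions in the stringent list of replicate 1 alone, 1 over the start site at 8.14 and 1 in an intron at 8.64, with an ISRE match 7 bases from the intronic summit. The less strict list of replicate 2 held both, at 7.29 over the start site and 7.79 in the intron.

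Parp9 and Dtx3l encode partners in one ADP-ribosylation and ubiquitin ligase complex, and their start sites lie close together on opposite strands of chromosome 16, so they share their regions and are not independent. The stronger region (chr16:35939666-35940093 in replicate 1) had 12.97 in replicate 1 and 15.1 in replicate 2. A weaker one between the start sites had 6.85 in replicate 1 and no counterpart in either list of replicate 2, with an ISRE match 9 bases from the summit. The strongest region of the pair was therefore not the one with the ISRE. Parp14, another ADP-ribosyltransferase, had 6.49 in replicate 1, the lowest of the 28 members there, and 4.65 in the less strict list of replicate 2.

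The 5 restriction factors were all open in both replicates, against 39.8% of all genes. Rsad2, which encodes viperin, had 12.7 in replicate 1 and 9.63 in replicate 2. Cmpk2, the mitochondrial nucleotide kinase encoded next to it, had 11.98 in replicate 1 and 11.4 in replicate 2. Bst2, which encodes the tetherin that holds budding virus at the membrane, had 11.2 in replicate 1 and 11.5 in replicate 2. In all 3 the signal in replicate 2 lay below the median of 13.9 over all genes. Isg20, an exonuclease that degrades RNA, had 11.3 in replicate 1 and 14.9 in replicate 2 at its principal start. Samhd1, which depletes deoxynucleotides, had 6.67 in replicate 1 and 9.30 in replicate 2, among the lowest of the members open in both.

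Of the 6 other induced genes, 4 were open in both replicates, against 39.8% of all genes. Ifi35, a partner of NMI, had 15.4 in replicate 1 and 13.4 in replicate 2, without an ISRE match in the region. Ifi27, a small mitochondrial protein, had 13.5 in replicate 1 and 11.97 in replicate 2, with the summit 9 bases from an ISRE match in replicate 1 and on it in replicate 2. Rtp4, a receptor transporter and antiviral effector, had 7.78 in replicate 1 and 9.09 in replicate 2, the lowest signal of the 20 in replicate 2. All of its regions lay at the principal start, with none at the 5'-most start site of an extended transcript.

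Sp100, a nuclear body protein, had 13.2 in replicate 1 and 16.3 in replicate 2. That region lay in an intron 53741 bases from the principal start in replicate 1, near the start of a transcript that GENCODE does not tag as basic, and no list of a replicate held a region at the principal start. Within 1 kb of the 5'-most Sp100 start site 76.4% of the 31-base words recur in the genome, the highest share of any member. Xaf1, a pro-apoptotic factor, had 6.90 in replicate 1 and, in the less strict list of replicate 2, 5.41. Ifi44 had no region in any list of a replicate and no ISRE match within 1 kb of its start.

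Of the 28 members with a region in replicate 1, the strongest summit lay within 100 bases of the principal start site in 17, between there and 1000 bases in 5 and farther in 6. An ISRE match lay in the window from 250 bases before to 50 after the 5'-most start site in 17 of 34 members (50%), against 3.55% of all protein-coding genes. GAS (TTCNNNGAA) matched in 8 members (23.5%), against 8.37% of all genes. The GC box (GGGCGG) matched in 10 members (29.4%), against 43.0% of all genes. For the other strings the shares of members and of all genes were as follows: ETS (GGAAGT) 29.4% against 24.8%, CEBP (TTGCNNAA) 8.82% against 10.6%, AP-1 (TGANTCA) 14.7% against 6.91%, and an ETS-IRF composite (GGAANNGAAA) 8.82% against 2.81%. The string for a TATA box, TATAAA, matched in 14.7% against 12.6%. All were searched on both strands; no site can match both the composite and the ISRE, while a composite or an ETS string can share bases with a neighbouring match. The members were listed as interferon-stimulated, so their ISRE share describes the list and supports nothing else.

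**Figure D3:**
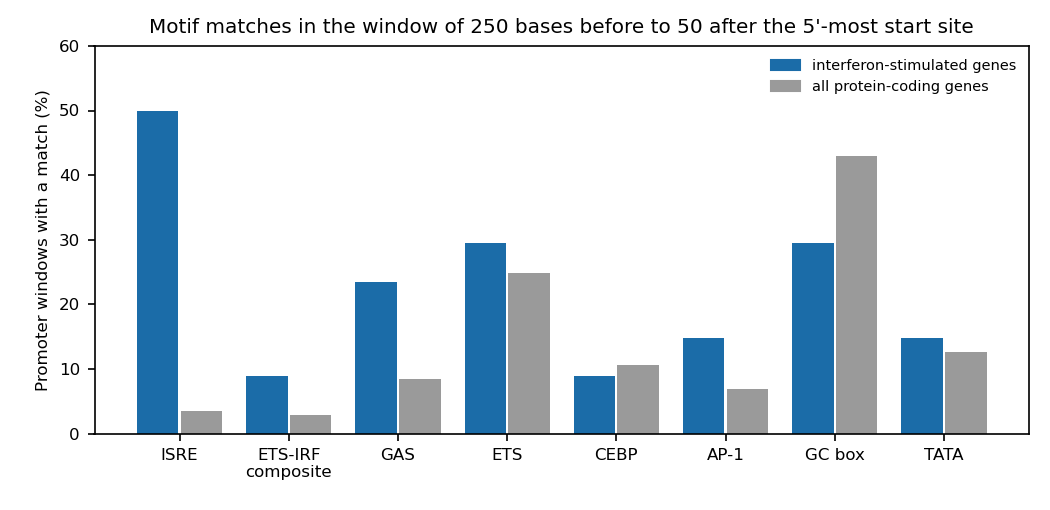
Percentage of 300-base promoter windows with a match to each of 8 motif strings (vertical axis) for the interferon-stimulated genes and for all protein-coding genes. The ISRE differs most, at 50% against 3.55%.

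Members with and without an ISRE were set side by side, with no test. Of the 17 members with a match in that window, 9 (52.9%) were open in both replicates, and of the 17 without one, 11 (64.7%) were. Over all protein-coding genes with a match, 36.2% were open in both, against 39.8% of all protein-coding genes. The split depends on the start site used. Rtp4 and Gbp5, open in both replicates, count here as without a match, although each has one in that window at its principal start. Parp9 and Dtx3l count so too, with a match within 100 bases of a summit in replicate 1. The split was not repeated at the principal start. Among the 33 promoter regions of members in replicate 1, the 14 that held a match had a median signal of 11.1 and the 19 without had 10.3. In replicate 2 the medians were 11.7 for the 10 regions with a match and 12.005 for the 9 without, so the order was not kept between replicates.

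Matches near the summits of promoter regions were counted in replicate 1. A match lay within 100 bases of the summit in 11 of 33 member regions of replicate 1 (33.3%), against 2.09% of 11295 promoter regions. These 11 regions belong to 12 members: Ifih1, Ddx58, Zbp1, Oas3, Gbp7, Usp18, Herc6, Parp9, Dtx3l, Rsad2, Ifi27 and Rtp4. Bst2 fell just outside, with its nearest match at -108 bases from the summit in replicate 1 and -100 in replicate 2. In replicate 2 Ifih1 (-101) and Rsad2 (-103) also fell outside, while Isg20 fell inside at 78, from 106 in replicate 1. Ddx58, Oas3, Herc6, Parp9 and Dtx3l had no match in a stringent region of replicate 2. Like the window share, these counts describe a list chosen as interferon-stimulated and support nothing else.

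**Figure D4:**
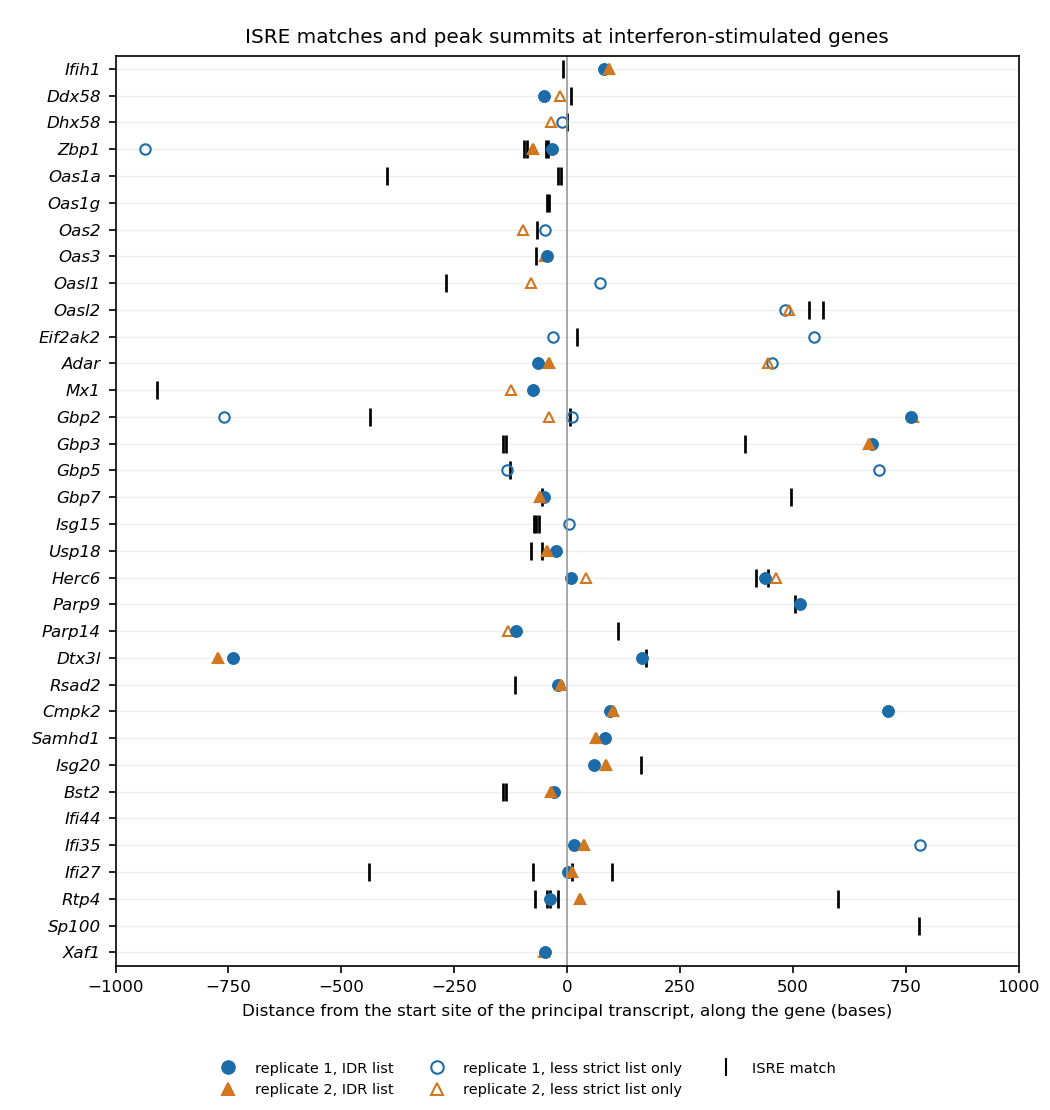
Position of ISRE matches (ticks) and region summits in replicate 1 (circles) and replicate 2 (triangles) within 1 kb of the principal start site of each interferon-stimulated gene, in bases along the gene; open symbols are from the less strict lists alone. The strongest summit of replicate 1 lies within 100 bases of the start in 17 members, a count not made over all genes. The ticks of Oas1a and Oas1g stand with no summit.

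Distal regions, whose summits lie over 1 kb from every annotated start site, were counted within 50 kb in the stringent lists. In replicate 1 the members had a mean of 1.59, against 1.17 over all protein-coding genes, and 23 of 34 (67.6%) had at least 1, against 51.3%. In replicate 2 the mean was 0.412, against 0.433 over all genes, and 11 of 34 (32.4%) had at least 1, against 27.8%. In replicate 1 the share and the mean were thus above those of all genes. In replicate 2 both lay near those of all genes, the share slightly above and the mean slightly below. In all, 44 distal regions lay near members in replicate 1 and 11 in replicate 2, and all 11 overlapped a region of replicate 1. Their median signal was 9.02 in replicate 1, against 9.38 over all distal regions, and 9.31 in replicate 2, against 10.5. Neighbouring members share regions: 9 of the 44 in replicate 1 and 3 of the 11 in replicate 2 lay within 50 kb of 2 or more members.

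The members with the most distal regions were Ddx58, with 5 in replicate 1 and 0 in replicate 2, then Bst2, Oasl1 and Oasl2, each with 4 in replicate 1 and 2 in replicate 2, and Gbp5, with 4 in replicate 1 and 1 in replicate 2. Oasl1 and Oasl2 share all of theirs. The strongest distal region near any member (chr5:114883098-114883456 in replicate 1) had 15.4 in replicate 1 and 13.7 in replicate 2, at -39966 bases from the Oasl1 start site in replicate 1 and nearer to that of Oasl2. For Rtp4 an intronic region (chr16:23557188-23557602 in replicate 1) had 14.7 in replicate 1 and 10.8 in replicate 2. A region at -3313 bases from Gbp5 in replicate 1 had 14.3 there and 12.1 in replicate 2. All 3 of these regions were in both stringent lists. No distal region of Ddx58 was, but the less strict list of replicate 2 held 3 near it, the strongest at 9.33, against 14.1 for that region in replicate 1.

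**Figure D5:**
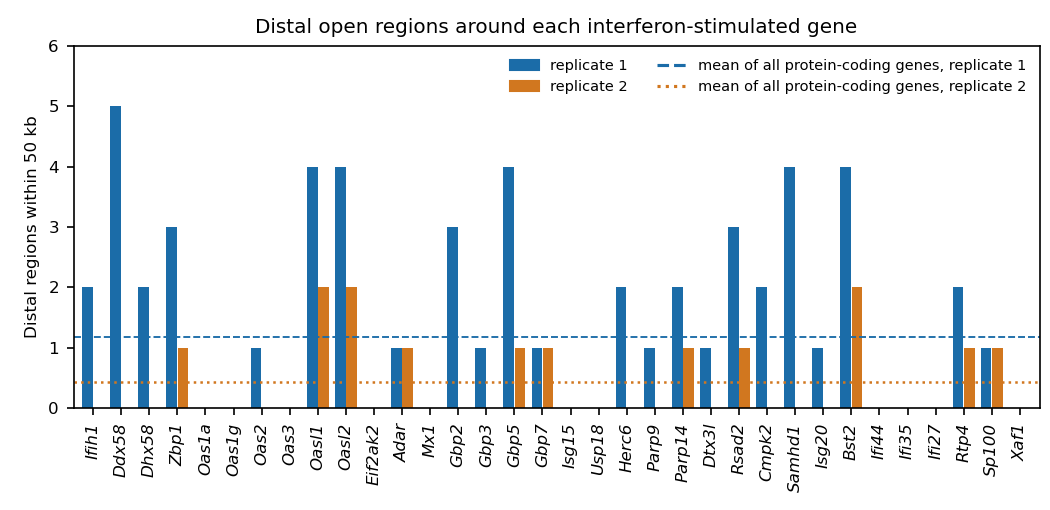
Count (vertical axis) of distal regions up to 50 kb from the 5'-most start site, for each interferon-stimulated gene in replicate 1 and replicate 2, with the means of all protein-coding genes as lines. Ddx58 has 5 in replicate 1 and none in replicate 2, while Bst2, Oasl1 and Oasl2 keep 2 in replicate 2.

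Of the 44 distal regions of replicate 1, 4 held an ISRE match anywhere, and none of the 11 of replicate 2 did. Within 100 bases of the summit it was 3 of 44 (6.82%), against 3.82% of all 15565 distal regions. One of the 4 lies between Rsad2 and Cmpk2 (chr12:26460139-26460514), with a signal of 7.69 in replicate 1 and, in the less strict list of replicate 2, 5.96. It is printed because it is the only one of them with 2 matches, marked in capitals.
Region between Rsad2 and Cmpk2, chr12:26460208-26460327, plus strand: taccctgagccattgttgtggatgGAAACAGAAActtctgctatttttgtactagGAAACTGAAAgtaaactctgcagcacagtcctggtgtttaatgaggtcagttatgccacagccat
The nearer match was centred -67 bases from the summit, on the plus strand of GRCm38.

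The rest of the interferon pathway was described from 45 genes, of which 44 matched; Mb21d1 did not match under that symbol. Of these, 25 (56.8%) were open in both stringent lists, close to the share of the effector genes and against 39.8% of all genes. The shares were less alike in other settings. In the less strict lists it was 72.7%, against 85.3% of the effector genes and 49.8% of all genes. In the conservative IDR list it was 68.2%, against 85.3% and 46.7%. With a region required to cover the principal start site it was 47.7%, against 38.2% and 32.4%. Jak1 had 19.1 in replicate 1 and 19.97 in replicate 2, Tyk2 had 17.9 in each, and Irf9 had 13.4 in replicate 1 and 14.1 in replicate 2. All 6 signal transducer genes, all 6 IRF genes and all 4 negative regulators (Socs1, Socs3, Ptpn6 and Pias1) were open in both, as were 4 of 6 receptors and 5 of 12 upstream sensors and adaptors.

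No ligand of 10 was open in both replicates. Ifnb1 had 8.12 in replicate 1 and, in the less strict list of replicate 2, 6.32, and Ifng had 10.1 in replicate 1 alone; the other 8 had no region in either stringent list. An ISRE match lay in the window of 6 of the 44 pathway genes, against the 17 of 34 effector genes given above. With 18 of 44 CpG-rich promoters, against 2 of 34 among the effector genes, the pathway genes differ from them in promoter class as well as in role. Among genes without a CpG-rich promoter, 10 of 26 pathway genes were open in both replicates, against 18.2% of all genes of that class.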

How the data were processed

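ATAC-seq peak lists of 2 libraries of mouse blood neutrophils were used, on mm10 (GRCm38) per the labels. Each deposited peak has a start, an end, a summit offset, a signal value, which is a score given by the authors' processing and not defined in the file headers, and a −log10 p that the authors' caller gave; the −log10 p was not used for any result. The treatment of reads that map to several places, like the aligner and the peak caller, is not given in the sources used here. Depth is unknown because no reads were counted. Lists were made per replicate, except the conservative IDR list, made from both replicates together, per the file headers.

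From these lists, overlapping peaks were merged (minimum overlap 1 bp) on 21 chromosomes with python 3.11.15 and numpy 2.4.6, and the highest signal and its summit were kept. Genes and start sites came from GENCODE M21, and sequence from GRCm38.p6, read with pysam 0.24.0. The steps were tested on simulated peaks and motifs. The members, the other lists and the motifs were chosen with earlier results of these data known, and no test was made. All members and all pathway genes could be named, apart from a result that is not reported here; for distal regions the 5 members with the most regions in replicate 1 were named, ties broken by replicate 2 and then the alphabet. Samhd1, also with 4 regions in replicate 1, ranked below them. Alternatives were the less strict lists, the conservative IDR list, stronger peaks, other promoter and distal widths, other start sites, looser motif searches and each replicate alone.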

Additional observations from a re-analysis of the deposited data

How the results depend on the processing

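With replicate 1 left out, 20 members (58.8%) and 25 pathway genes (56.8%) had an open promoter, against 40.3% of all genes. With replicate 2 left out, 28 members (82.4%) and 32 pathway genes (72.7%) did, against 47.1%. Among peaks at or above the median signal value of their list, 13 members and 15 pathway genes were open in both replicates (38.2% and 34.1%, against 30.4% of all genes). Among such peaks 18 members were open in replicate 1, where no share over all genes was counted. With a region required to cover the principal start site, 13 members (38.2%) and 21 pathway genes (47.7%) were open, against 32.4% of all genes. That setting was chosen after seeing the data. The less strict lists (29 members), the conservative IDR list (29), a width of 2.5 kb (21), summits inside the window (19), the 5'-most start alone (16) and basic transcripts alone (17, also chosen after seeing the data) kept the member count within 1.5 times of 20, and each stood above the share of all genes. The mean number of distal regions per member in replicate 1 moved to 3.24 within 100 kb, against 2.27 over all genes, and to 2.85 in the less strict list, against 2.17. In replicate 2 it was 0.971 within 100 kb, against 0.835, and 1.41 in the less strict list, against 1.22, so with these settings members lay above all genes in both replicates; within 25 kb (0.206 against 0.221) and with summits over 2.5 kb from every start (0.324 against 0.329) they did not in replicate 2. An ISRE match was found in 27 members within 1 kb of the outermost start, against 22.9% of all genes, and in 30 members with 1 mismatch allowed, against 34.6%. With the 5'-most start alone 2 of 40 signal values moved beyond the spread between replicates, and with 2.5 kb 2 of 48 did. No paired analysis was possible because there is 1 group. The 2 libraries, the unknown depth and the missing definition of the score limit what the signal values can show, and a region absent from a list may lie under its threshold.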
